A study of Rattus norvegicus with 36 samples.

Results

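Antioxidant defense genes were followed through rat vocal fold (VF) wound healing and in cultured VF fibroblasts. The 10 genes were Hmox1, Nqo1, Sod1, Sod2, Sod3, Cat, Gpx1, Gpx3, Txnrd1 and Gclc, chosen by name as probe sets whose annotation gives a lone gene symbol equal to one of these names. All 10 genes had such a probe set, 12 probe sets in total, among 14217 genes with a symbol and 31042 probe sets. Txnrd1 and Gclc had 2 probe sets each. Values are RMA signals on the log2 scale, so a difference of 1 is a doubling. A level is comparable between groups for the same probe set, not between probe sets.

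Superoxide and hydrogen peroxide are formed by respiration and, in wounds, by the oxidases of leukocytes. Superoxide dismutases turn superoxide into hydrogen peroxide, which catalase breaks down without NADPH. Glutathione peroxidases and thioredoxin-dependent peroxidases remove hydrogen peroxide with reducing power from NADPH. In many cells the transcription factor Nrf2 (Nfe2l2), released from its inhibitor Keap1 by oxidants, raises a group of these genes through antioxidant response elements, while the repressor Bach1 is released from such elements by heme.

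The VF mucosa came from male Fischer 344 rats that were 120 days old when the experiment began. The post-injury (PI) rats had the mucosa of both VFs stripped by surgery, and controls of the same age were not injured. The harvest followed 3, 14 or 60 days later, at ages of 123, 134 and 180 days, and each array pools the microdissected mucosae of 4 rats. The array labels give 5 PI and 3 control arrays at 3 days, 5 and 3 at 14 days, and 5 and 2 at 60 days, 23 in all, although the study's methods describe another split of the 60-day arrays. Another 13 arrays hold fibroblasts grown from explants of 1 rat each at 180 days of age, kept in medium with 10% fetal bovine serum and harvested at passage 1 and 80% confluence. These are 3 naive cultures, 4 scar cultures from VFs injured 60 days earlier, 3 scar cultures given 50 nM siRNA against gp46 (Serpinh1, a collagen chaperone) in liposomes for 1 h and harvested after 24 h more, and 3 scar cultures given scramble siRNA in the same way.

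Some mucosa arrays stood apart from their groups in a shared way. When each gene's departure from its group mean was compared, 3-day PI replicate 5 resembled 14-day control replicate 3 (Pearson's r across genes 0.61) and 60-day PI replicate 4 (0.60), and the latter pair had an r of 0.45, with genes not being independent replicates. The mucosa arrays carried epithelial, gland, muscle, fibroblast and macrophage markers. The list mean of stratified epithelium was between 11.45 and 12.27 over the mucosa arrays and between 5.53 and 5.86 in the fibroblast cultures. The fibroblast list was between 13.02 and 13.39 in the cultures. In bulk tissue, fewer cells of a type and less RNA per cell cannot be told apart. All arrays have 1 distribution of values, so levels are relative to the rest of the RNA.

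RefSeq sequences upstream of the transcription start (build GRCr8) were on hand for 8 of the 10 genes. Hmox1 and Sod3 had none, so their promoters were not searched. Sequences are shown for Nqo1, Txnrd1 and Cat, and for Sod2, which holds a match to the antioxidant response element. Each line gives the 250 bases before the start, read 5′ to 3′ on the gene's strand. Txnrd1 has a pair of listed starts, both inside the annotated span of the gene (chr7:22717620-22802553), so neither is its outermost start. Upstream and downstream give only the order of this pair. Capitals mark matches on either strand to the core of the antioxidant response element (TGACNNNGC), an AP-1 site spelled TGANTCA, a box spelled CCAAT or the TATA box searched for as TATAAA. No match overlapped another.
Nqo1, chr19:52220268-52220517, minus strand: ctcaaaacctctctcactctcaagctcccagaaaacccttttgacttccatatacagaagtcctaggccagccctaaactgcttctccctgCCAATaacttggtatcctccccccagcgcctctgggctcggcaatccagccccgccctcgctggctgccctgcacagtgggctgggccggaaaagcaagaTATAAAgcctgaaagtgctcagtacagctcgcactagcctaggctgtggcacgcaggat
Txnrd1 at the upstream start, chr7:22764852-22765101, minus strand: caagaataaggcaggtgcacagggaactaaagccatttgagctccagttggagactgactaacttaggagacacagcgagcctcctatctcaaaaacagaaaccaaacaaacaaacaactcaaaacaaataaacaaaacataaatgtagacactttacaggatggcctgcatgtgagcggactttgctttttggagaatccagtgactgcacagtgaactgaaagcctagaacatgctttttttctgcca
Txnrd1 at the downstream start, chr7:22755905-22756154, minus strand: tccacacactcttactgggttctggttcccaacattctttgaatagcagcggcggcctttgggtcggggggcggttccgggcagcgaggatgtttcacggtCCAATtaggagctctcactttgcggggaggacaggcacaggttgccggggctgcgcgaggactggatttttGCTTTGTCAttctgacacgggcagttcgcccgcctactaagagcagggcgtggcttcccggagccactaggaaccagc
Cat, chr3:110329527-110329776, minus strand: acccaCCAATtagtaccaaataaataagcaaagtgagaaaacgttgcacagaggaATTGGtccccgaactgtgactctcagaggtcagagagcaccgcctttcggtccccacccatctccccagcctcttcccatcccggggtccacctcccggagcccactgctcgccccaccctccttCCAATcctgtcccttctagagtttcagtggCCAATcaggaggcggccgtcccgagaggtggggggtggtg
Sod2, chr1:50050169-50050418, minus strand: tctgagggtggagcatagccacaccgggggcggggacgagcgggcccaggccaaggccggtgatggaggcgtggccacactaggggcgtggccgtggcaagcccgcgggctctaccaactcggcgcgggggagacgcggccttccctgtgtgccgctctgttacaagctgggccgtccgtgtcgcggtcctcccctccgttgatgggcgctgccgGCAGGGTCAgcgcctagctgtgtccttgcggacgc

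The core of the antioxidant response element was matched once at the downstream start of Txnrd1, 78 to 70 bases upstream, and once in Sod2, 35 to 27 bases upstream. Both matches lie on the opposite strand. Of 33469 rat promoter windows of this length, 10.1% hold such a match, so it is common. Nqo1 held a TATA box 59 to 54 bases upstream and a CCAAT box, Cat held 4 CCAAT boxes, and none of the windows of the 8 genes held an AP-1 site. A CCAAT box occurs in 34% of the windows, a TATA box in 12.9% and an AP-1 site in 6.34%. A window without a match says only that these letters are absent from it.

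The within-time-point comparison at 3 days asked which of these genes differed between PI and control mucosa in the inflammatory phase. Hmox1 rose, Sod3 and Cat fell, and the other 7 genes did not pass the test. Of all 14217 genes, 26.6% were called at a limma adjusted p under 0.05, 14.6% as higher and 12% as lower, so 3 of 10 is close to the share of genes in general. The median difference was -0.05 over the 10 genes and 0.01 over all genes.

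Hmox1 encodes heme oxygenase-1, the inducible enzyme that splits heme into biliverdin, carbon monoxide and iron. Its signal was 9.75, 10.18 and 9.69 in the 3-day control arrays and 12.31, 12.01, 12.53, 12.78 and 12.15 in the PI arrays. Every PI array lay above every control array. The means were 9.87 ± 0.27 (SD, n = 3) and 12.36 ± 0.31 (SD, n = 5), a 5.6-fold difference (log2 2.48, SE 0.19, limma adjusted p = 5.56e-09).

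Sod3 encodes the extracellular superoxide dismutase, which is secreted and held by heparan sulfate of the matrix. Its signal was 11.62, 12.13 and 11.85 in the control arrays and 10.64, 10.82, 10.60, 10.43 and 10.09 in the PI arrays, with no overlap. Sod3 was 2.55-fold lower in PI mucosa (log2 -1.35, SE 0.17, limma adjusted p = 5.03e-06). The cytosolic enzyme Sod1 and the mitochondrial enzyme Sod2, which is induced by inflammatory cytokines in many cells, were not called. Sod1 was at 13.34, 13.32 and 13.32 in the controls and between 12.74 and 13.26 in the PI arrays, each of them lower, with a difference of -0.20 (SE 0.12, adjusted p = 0.244). Sod2 was at 12.30, 12.21, 12.30 and 12.27 in PI replicates 1 to 4 and at 11.49 in replicate 5, against 11.75, 12.16 and 11.89 in the controls. The difference of Sod2 was 0.18 (SE 0.16, adjusted p = 0.444), and without PI replicate 5 it was 0.34 and passed the test (adjusted p = 0.0362). In that array the list mean of neutrophil markers was 6.38, against 7.37 to 7.80 in the other PI arrays. The array also had the lowest list mean of stratified epithelium (11.45, others 11.79 to 11.87) and the highest of cilia (9.63, others 8.90 to 9.29). The part of these departures in the value of Sod2 was not tested.

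Cat encodes catalase, the peroxisomal enzyme that breaks down hydrogen peroxide without NADPH. Its signal was 12.10, 12.001 and 12.10 in the control arrays and 11.47, 11.45, 11.63, 11.39 and 11.68 in the PI arrays. The groups did not overlap, and Cat was 1.46-fold lower in PI mucosa (log2 -0.54, SE 0.08, limma adjusted p = 1.51e-05). Cytosolic glutathione peroxidase (Gpx1) and the secreted plasma form (Gpx3) did not pass the test. Gpx1 differed by -0.07 (95% confidence interval -0.32 to 0.17). Gpx3 differed by 0.32 (-0.12 to 0.75), with 12.13, 12.08, 11.995 and 12.08 in PI replicates 1 to 4, 11.62 in replicate 5 and 11.56, 12.03 and 11.40 in the controls. Without the 3 arrays that deviated together, the difference of Gpx3 was 0.41 and passed (adjusted p = 0.0317).

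Among the 10 genes, Nqo1, Txnrd1 and Gclc, also of the Nrf2 group, showed no difference at 3 days that passed the test. Gclm and Slc7a11, called in opposite directions at 3 days, are given below with the related genes. Nqo1, the quinone reductase used as a marker of Nrf2 activity, was at 11.55, 12.53 and 11.79 in the controls and between 11.26 and 11.93 in PI mucosa (difference -0.42, 95% confidence interval -1.01 to 0.16). Txnrd1, the cytosolic thioredoxin reductase, differed by 0.01 (-0.38 to 0.41) and by 0.24 (-0.45 to 0.94) at its second probe set. Gclc, the catalytic subunit of the enzyme that limits glutathione synthesis, differed by -0.02 (-0.26 to 0.22) and by 0.16 (-0.32 to 0.64) at its second probe set. The arrays did not overlap in 4 of the 10 genes, Hmox1, Sod3, Cat and Sod1, against 31.2% of all genes.

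**Figure D1:**
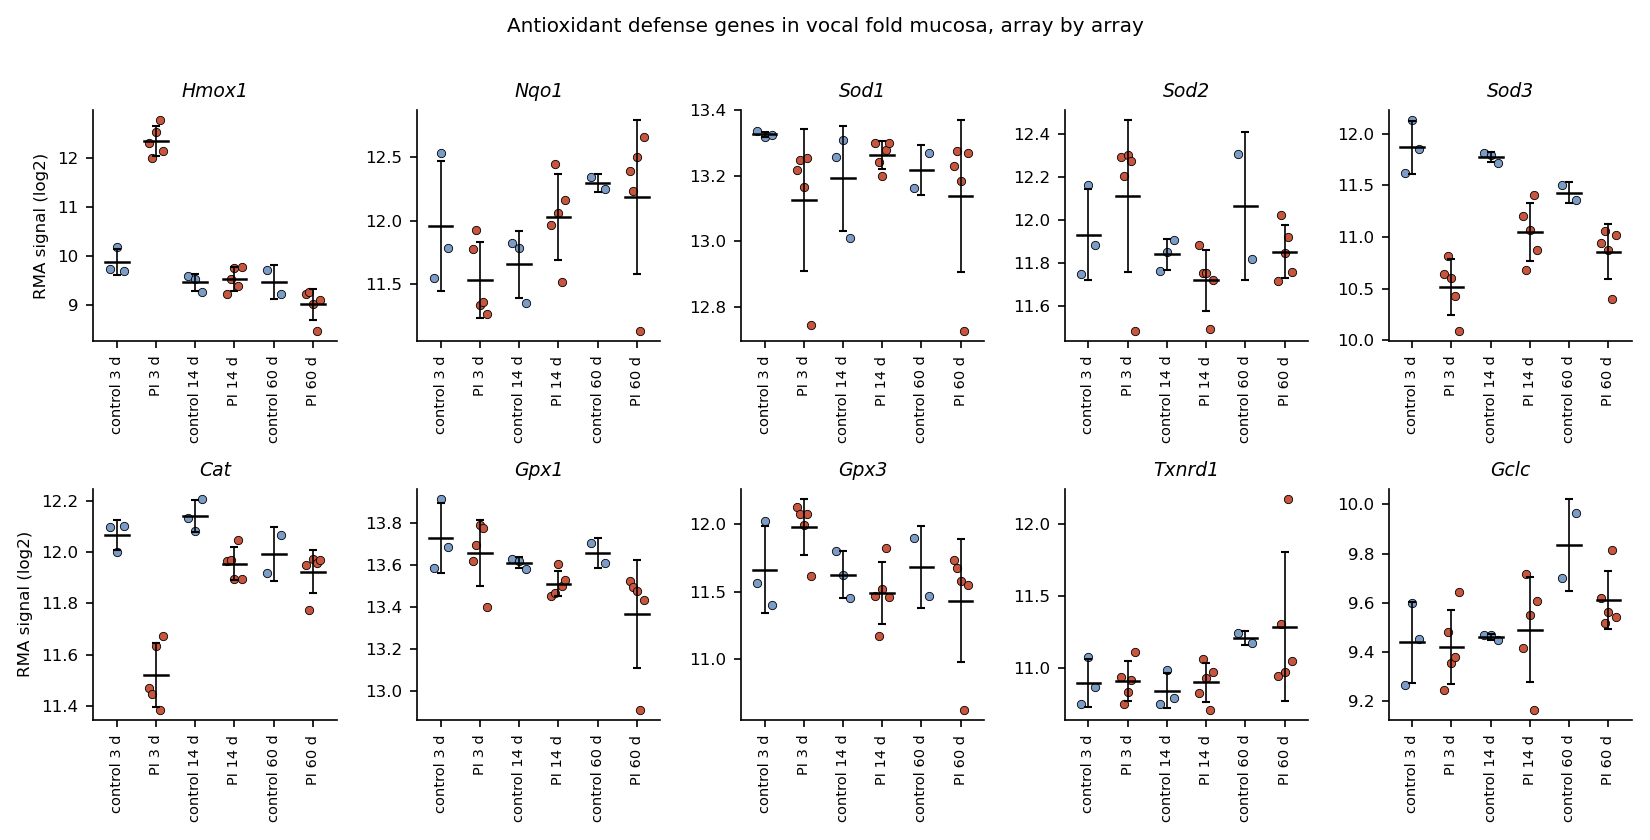
RMA signal (log2, vertical axis, scaled per gene) of the 10 genes in each mucosa array, with control arrays in blue and PI arrays in red at 3, 14 and 60 days. Lines are group means and bars are SD; the 5 PI arrays at 3 days are above all others for Hmox1, between 12.01 and 12.78.

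Marker lists of cell types were also compared at 3 days. Of all genes 26.6% were then called, 14.6% as higher and 12% as lower, and the counts below stand beside these shares. Of 7 measured neutrophil markers (of 8 listed), 4 rose, with S100a8 the largest difference (3.36, adjusted p = 0.000658) and Cxcr1 the smallest (0.14, 0.416), and the list mean was 5.70 to 6.37 in controls and 6.38 to 7.80 in PI arrays. Of 8 macrophage markers, 1 rose, Adgre1 (0.68, adjusted p = 0.0439), Cd68 had the smallest difference (-0.17, 0.776), and the list mean was 9.85 to 11.02 in controls and 10.25 to 10.81 in PI arrays. Of 11 fibroblast markers, 6 rose, with Col1a1 the largest (2.29) and Pdgfra the smallest difference (0.09, adjusted p = 0.527), and the list mean was 11.89 to 12.13 in controls and 12.71 to 12.85 in PI arrays. Of 10 skeletal muscle markers, 6 fell, with Mb the largest (-1.23) and Acta1 the smallest difference, and the list mean was 12.21 to 13.07 in controls and 11.82 to 12.72 in PI arrays. The part of these cells in the values of Hmox1, Sod3 and Cat was not tested. No marker of red blood cells was called, with a list mean of 8.11 to 8.56 in controls and 8.0 to 8.13 in PI arrays. Cilia markers rose in 3 of 4, led by Tekt1 (1.52), and endothelial markers in 2 of 6, led by Pecam1 (0.84). Gland markers rose in 1 (Bpifb1, 2.70) and fell in 2 of 7, epithelial markers rose in 2 and fell in 1 of 9 (Krt4, -0.68), and adipocyte markers fell in 3 of 7 (Fabp4, -1.56).

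At 14 days PI, Hmox1 was not called. Its signal was 9.59, 9.53 and 9.26 in controls and between 9.22 and 9.78 in PI mucosa, with overlap (difference 0.07, SE 0.19, adjusted p = 0.963). Sod3 alone was called, against 3.03% of all genes. It was at 11.81, 11.79 and 11.72 in controls and at 11.20, 10.68, 11.06, 11.41 and 10.88 in PI arrays, 1.66-fold lower (log2 -0.73, SE 0.17, limma adjusted p = 0.0205). All PI arrays were lower, but the call was lost, with an adjusted p of up to 0.092, when PI replicate 2 or 5 or any control replicate was left out. The mean of the cilia list was 8.22 to 8.35 in controls and 9.20 to 9.73 in PI arrays (3 of 4 genes higher), that of the fibroblast list 11.94 to 12.01 and 12.12 to 12.40 (4 of 11 higher), and that of the endothelial list 9.17 to 9.23 and 9.41 to 9.72 (1 of 6 higher). The macrophage list was at 9.98 to 10.16 in controls and 9.47 to 9.94 in PI arrays, with none of 8 called. Their part in the value of Sod3 was not tested. The PI arrays of Cat also lay below all controls, at 11.97, 11.97, 11.90, 12.05 and 11.89 against 12.13, 12.08 and 12.21, a difference of -0.19 that did not pass (SE 0.08, adjusted p = 0.246). The groups did not overlap in these 2 genes, against 14.1% of all genes. The other 8 differed by between -0.14 (Gpx3) and 0.37 (Nqo1), none of them called.

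At 60 days PI none of the 10 genes was called, and limma called 8 of 14217 genes (0.0563%). These groups follow the array labels, which differ from the study's methods. Whether an array belongs to the other group was not tested. At an unadjusted p under 0.05, 2 of the 10 genes passed, against 8.99% of all genes. Sod3 was at 11.50 and 11.36 in controls and at 10.94, 11.06, 10.87, 10.40 and 11.02 in PI arrays (difference -0.57, SE 0.20, adjusted p = 0.347). Gpx1 was at 13.71 and 13.61 in controls and at 13.52, 13.50, 13.48, 12.91 and 13.43 in PI arrays (difference -0.29, SE 0.14, adjusted p = 0.534), and the difference was -0.18 without PI replicate 4. In both genes each PI array was below each control array, as in 12.4% of all genes with only 2 control arrays. Hmox1 had an overlapping difference of -0.46 (SE 0.22, adjusted p = 0.559), which was -0.21 without control replicate 1 and -0.71 without control replicate 2. With the 8 control arrays of the 3 ages pooled, Hmox1 (-0.60, adjusted p = 0.022), Sod3 (-0.86, 0.000654) and Gpx1 (-0.30, 0.043) passed as lower. That fit sets PI mucosa of 180-day-old rats against controls that include rats of 123 and 134 days. The control means of Sod3 were 11.87, 11.77 and 11.43 at 3, 14 and 60 days. The share of all genes called in the pooled fit is not given here, so these calls cannot be set beside it. Macrophage markers were at 10.07 and 10.41 (list means) in the 60-day controls and between 8.80 and 9.73 in PI arrays, and their part in the value of Gpx1 was not tested.

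**Figure D2:**
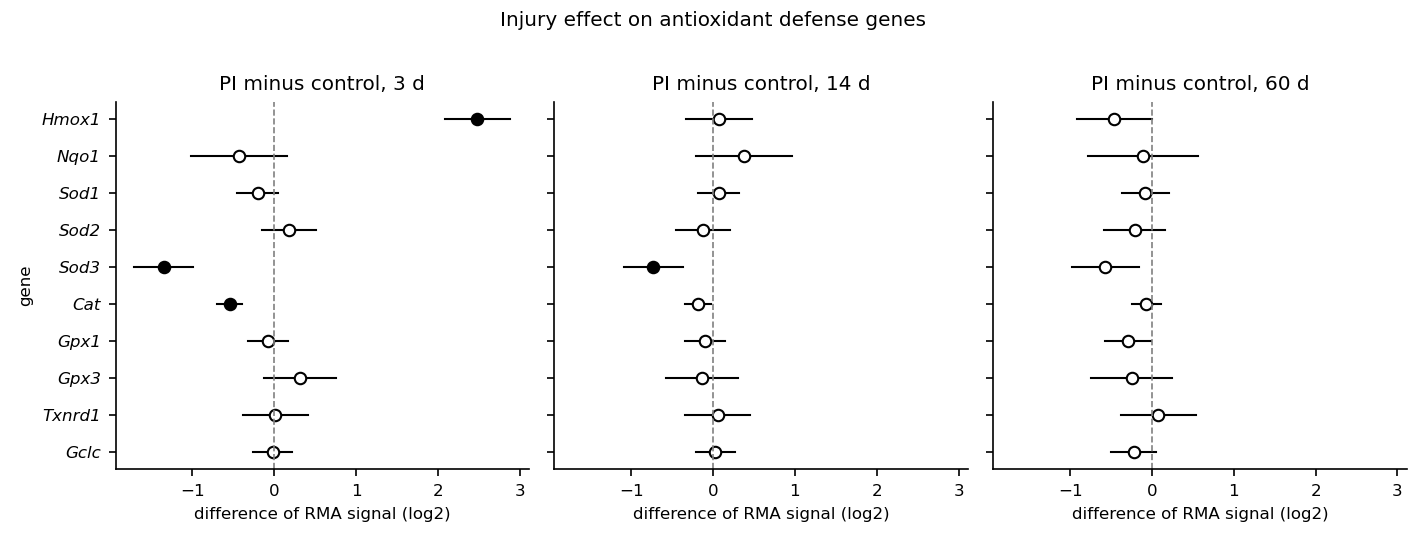
Difference of RMA signal between PI and control mucosa (log2, horizontal axis) for each gene at 3, 14 and 60 days, with limma 95% confidence intervals. Filled points passed an adjusted p under 0.05: Hmox1, Sod3 and Cat at 3 days, and Sod3 at 14 days.

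Whether the injury effect itself differed between time points was tested as a difference of differences. For Hmox1 the effect at 3 days exceeded that at 14 days by 2.41 (SE 0.27, limma adjusted p = 1.07e-05) and that at 60 days by 2.94 (SE 0.29, adjusted p = 1.04e-06). For Cat the effect at 3 days minus that at 60 days was -0.48 (SE 0.12, adjusted p = 0.00802), a call lost without 60-day control replicate 1 (adjusted p = 0.0795). Between 3 and 14 days the effect on Cat differed by -0.36 (SE 0.11, adjusted p = 0.0423), and leaving out any of 11 of the 16 arrays ended that call, with an adjusted p of up to 0.117. Thus 2 of 10 genes were called in each comparison, against 8.01% (3 against 14 days) and 13.5% (3 against 60 days) of all genes. For Sod3 the effect at 3 days minus that at 14 days was -0.62 (adjusted p = 0.134), and minus that at 60 days it was -0.78 (adjusted p = 0.0521), neither past the threshold. The latter passed without PI replicate 2 of day 3 (adjusted p = 0.0366), without control replicate 1 of day 3 (0.0429) or without PI replicate 4 of day 60 (0.0124), and without 3-day PI replicate 5 Sod2 passed too (0.55, adjusted p = 0.0347). No gene of the 10 differed between 14 and 60 days, where 0.0774% of all genes did.

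In the across-time-point comparison, 4 of the 10 genes changed over the PI groups by the moderated F test, Hmox1 (limma adjusted p = 5.11e-12), Cat (2.32e-05), Sod3 (0.0213) and Gpx3 (0.0351), against 38.5% of all genes. Sod3 rose from a mean of 10.52 at 3 days to 11.04 at 14 days and was 10.86 at 60 days, still below the control means of 11.87, 11.77 and 11.43. Cat went from 11.52 at 3 days to 11.95 and 11.92. Gpx3 was highest at 3 days with 11.98, followed by 11.49 and 11.43. The call of Gpx3 was lost without any of 3-day PI replicates 1 to 4 (adjusted p up to 0.0903) and in a fit of the PI arrays alone (0.0534). That of Sod3 was lost without 3-day PI replicate 4 or 5 or 14-day PI replicate 4 (up to 0.0683). Without 60-day PI replicate 4, Nqo1 also passed (adjusted p = 0.00239), and without 3-day PI replicate 5, Sod2 (0.000653) and Gpx1 (0.0256) did, and without 60-day PI replicate 1, Txnrd1 did (0.0484). Over the control groups none of the 10 changed, and 0.0141% of all genes did.

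The related genes of these pathways, 88 of 99 listed genes with a probe set of their own in 9 lists, moved in both directions at 3 days PI, with 9 higher and 16 lower. Of all genes 26.6% were called, 14.6% higher and 12% lower. Of 9 genes that control Nrf2, 1 rose and 4 fell. The repressor gene Bach1 was 1.32-fold higher (log2 0.40, SE 0.10, adjusted p = 0.00535). The inhibitor Keap1 (-0.35, adjusted p = 0.0016), its ubiquitin ligase partner Cul3 (-0.48, 0.00483) and the small Maf partner Mafk (-0.27, 0.00571) were among the lower ones, while Nfe2l2 itself differed by -0.09 (0.525). Cul3 was 0.14 higher at its probe set of highest mean (adjusted p = 0.334), so its direction depends on the probe set.

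Glutathione genes were split as well. Of 11 genes of synthesis and recycling, Gss, glutathione synthetase, rose (0.76, adjusted p = 0.000171), as did Gclm, the modifier subunit that pairs with Gclc (0.49, 0.00529). The subunits of the cystine transporter, Slc7a11 (-1.18, adjusted p = 0.00395) and Slc3a2 (-0.51, 0.000853), fell. Of 5 other glutathione peroxidases, the endoplasmic reticulum enzymes Gpx7 (1.44, adjusted p = 0.000159) and Gpx8 (1.12, 0.000583) rose. Of 13 thioredoxin and peroxiredoxin genes, 3 fell and none rose, namely Sesn1 (-0.49, adjusted p = 0.00318), Txnrd3 (-0.34, 0.00698) and the mitochondrial reductase Txnrd2 (-0.36, 0.0254).

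The lists of supply and iron genes held a few changes each. Of 7 NADPH genes, the mitochondrial enzymes Idh2 (-0.60, adjusted p = 0.000521) and Nnt (-0.84, 0.00272) fell. Of 12 heme and iron genes, Alas1, the first enzyme of heme synthesis, fell (-0.89, adjusted p = 5.02e-05), as did ceruloplasmin, Cp (-0.51, 0.0314), and Slc40a1, the iron exporter ferroportin, rose (0.65, 0.00121). Of 7 metallothionein and copper genes, Mt2A rose (0.99, adjusted p = 0.0436) and Mt3 fell (-2.24, 0.00122). Of 12 selenoprotein genes, Selenon rose (0.39, adjusted p = 0.0121) and Secisbp2, which helps to insert selenocysteine, fell (-0.28, 0.00819). Of 12 genes of oxidant production (18 listed), the oxidase Nox4 rose (1.39, adjusted p = 3.64e-05) and the phagocyte oxidase subunit Cybb fell (-0.72, 0.0121). Nox4 may be at background in control mucosa, so the sizes of its differences are uncertain, here and between time points. The median difference of the 9 lists was between -0.28 (oxidant production) and 0.17 (other glutathione peroxidases), beside 0.01 over all genes.

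At 14 days PI, 4 of these 88 genes were called, against 3.03% of all genes. Alas1 (-0.64, adjusted p = 0.0109) and Cp (-0.70, 0.0266) were still lower and Slc40a1 (0.53, 0.0374) was higher, and Noxo1, an organizer of epithelial NADPH oxidase, was higher (1.25, 0.0249). At 60 days none was called. Of the genes with the highest mean signal in their lists, Txn1, thioredoxin, then differed by -0.06 (adjusted p = 0.87), Gpx4 by -0.13 (0.868), Nfe2l2 by -0.07 (0.861) and Idh2 by 0.15 (0.784). Differences of Mt2A (-0.80, adjusted p = 0.601), Xdh (-0.45, 0.321) and the phagocyte oxidase subunit Cyba (-0.74, 0.608) were larger but did not pass either. For Cyba each PI array lay below both controls, and at 60 days the arrays did not overlap in 12.4% of all genes. Between 3 and 14 days the injury effect differed in 3 of the 88 (8.01% of all genes), Gss (0.61, adjusted p = 0.0434), Nox4 (1.10, 0.022) and Mt3 (-2.26, 0.0392). Between 3 and 60 days it differed in 12 (13.5% of all genes), among them Gpx7 (1.80, adjusted p = 0.00261), Gss (0.97, 0.00215), Nox4 (1.27, 0.00972) and Cul3 (-0.91, 0.00189). Over the PI groups 40 of the 88 changed by the F test, against 38.5% of all genes.

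**Figure D3:**
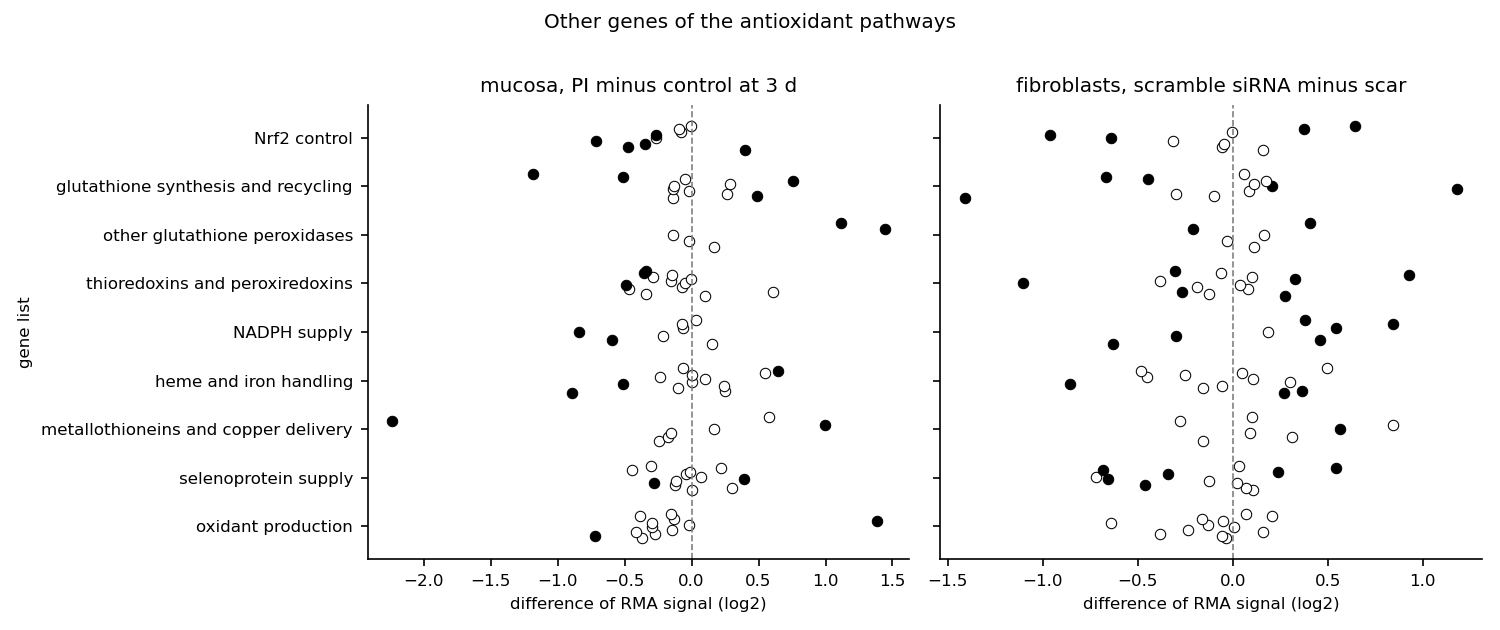
Difference of RMA signal (log2, horizontal axis) for each gene of 9 lists of related genes, PI minus control at 3 days on the left and scramble siRNA minus untransfected scar fibroblasts on the right. Filled points passed an adjusted p under 0.05 over all genes; on the left 9 were higher and 16 lower, on the right 17 and 16.

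Over the 23 mucosa arrays, the genes with the most similar pattern were named by Pearson's r as a description. Arrays share their groups and normalization. For Hmox1 these were Prim2, a DNA primase subunit, and Tpst2, a tyrosine sulfotransferase (both 0.98). For Sod3 they were Larp6 and Cadm3 (both 0.95), for Cat Cab39 and Vps13d (both 0.94), and for Gpx1 Ctss, cathepsin S of antigen-presenting cells (0.97), and Npc2 (0.96). Sod2 went with Lrg1 (0.88) and the acute-phase regulator Cebpd (0.84). The others were Rnasek (0.97) and Edf1 (0.95) for Sod1, Tmem45b and Ms4a8 for Nqo1 (both 0.90), Mak16 (0.94) and Pank2 (0.93) for Gpx3, Gk (0.95) and Susd6 (0.90) for Txnrd1, and Myo6 (0.85) and Pof1b (0.83) for Gclc.

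The fibroblast cultures were compared with uninjured mucosa to see where these genes stand in a cell type of the lamina propria. Between naive fibroblasts and the 8 control mucosa arrays, 8 of 10 genes were called, against 71.6% of all genes, and 7 did not overlap, against 65.5%. Higher in naive fibroblasts were Hmox1 (3.94-fold, log2 1.98, SE 0.16, adjusted p = 2.78e-12), Gpx3 (3.62-fold, 1.86, SE 0.23, 2.82e-08), Sod3 (1.93-fold, 0.95, SE 0.16, 6.33e-06) and Gclc (0.48, SE 0.10, 0.000135). Lower were Cat (2.02-fold, -1.02, SE 0.08, 3.37e-12), Sod2 (-0.64, SE 0.17, 0.00155), Gpx1 (-0.33, SE 0.11, 0.00661) and Sod1 (-0.28, SE 0.10, 0.0105). Against the 60-day controls alone, which match the cultures in age, Sod1 and Gclc no longer passed, with an adjusted p of 0.0893 and 0.163, and without 3-day control replicate 2 Nqo1 passed (0.54, adjusted p = 0.0293). Cell makeup, growth in serum, pooling of rats and the amount of RNA labelled differ together here and cannot be told apart. Of the 88 related genes, 32 were higher and 36 lower in naive fibroblasts, against 71.6% of all genes called. The gut and airway epithelial peroxidase Gpx2 had a mean signal of 6.42 in naive fibroblasts and 13.35 in mucosa, and the phagocyte oxidase subunit Cybb 5.76 and 12.86. Nox4 had 9.21 and 4.64. RMA values carry no detection call, so the lower of each pair may be at background and no fold is given for these 3. Gpx8 was 7.13-fold and Gpx7 5.57-fold higher, both without overlap, and Nfe2l2 differed by -0.09 (adjusted p = 0.299).

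The order of group means differed by gene. Hmox1 was highest in the siRNA-treated cultures (12.45 ± 0.09 and 12.37 ± 0.10, SD, n = 3 each), with 3-day PI mucosa next at 12.36 ± 0.31, and the scar and naive cultures followed at 11.82 ± 0.21 and 11.58 ± 0.13. Neighbours in this order overlapped. The remaining mucosa groups lay apart below, between 9.02 and 9.87. Sod3 was highest in naive fibroblasts (12.64 ± 0.20, n = 3), then in scar cultures (12.19 ± 0.31, n = 4), which overlapped with them, and lowest in 3-day PI mucosa. For Cat all 6 mucosa groups lay above all 4 culture groups, 3-day PI mucosa being the lowest of the mucosa and apart from both neighbours in the order.

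Scar fibroblasts were compared with naive fibroblasts to ask whether cells from a healed injury differ in culture. None of the 10 genes was called, against 5.47% of all genes. Gpx3 was at 13.40, 13.36 and 13.79 in naive and at 12.97, 12.14, 12.98 and 12.60 in scar cultures, each of them lower (-0.84, SE 0.30, adjusted p = 0.135). It was the only one of the 10 whose arrays did not overlap, against 18.5% of all genes. Sod3 was at 12.43, 12.83 and 12.67 in naive and 12.18, 11.83, 12.16 and 12.60 in scar cultures (-0.45, SE 0.18, adjusted p = 0.167), and passed without scar replicate 4 (-0.59, adjusted p = 0.0412). Hmox1 differed by 0.24 (SE 0.11, adjusted p = 0.251), and the other 7 by between -0.14 (Cat) and 0.19 (Txnrd1).

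Among the 88 related genes, 6 were higher and 9 lower in scar than in naive cultures, against 5.47% of all genes called. The oxidase Nox4 (-1.19, adjusted p = 0.00688), the selenoprotein P receptor Lrp8 (-0.98, 0.00352), ceruloplasmin Cp (-0.90, 0.0395) and the Nrf2 relative Nfe2l1 (-0.59, 0.00697) were lower. Of the thioredoxin list, the mitochondrial peroxiredoxins Prdx3 (0.37, adjusted p = 0.0193) and Prdx5 (0.35, 0.0409) were higher and Sesn1 (-0.80, 0.0128) and Txnrd3 (-0.33, 0.0201) lower. Ggt1, which breaks down extracellular glutathione (0.58, adjusted p = 0.0261), Slc3a2 (0.31, 0.0423), Idh2 (0.41, 0.0127) and the methionine sulfoxide reductase Msrb1 (0.53, 0.0121) were higher, and the NADPH sources Idh1 (-0.49, 0.00813) and Me1 (-0.33, 0.0459) and the peroxidase Gpx4 (-0.23, 0.0484) were lower. No metallothionein or copper gene was called.

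**Figure D4:**
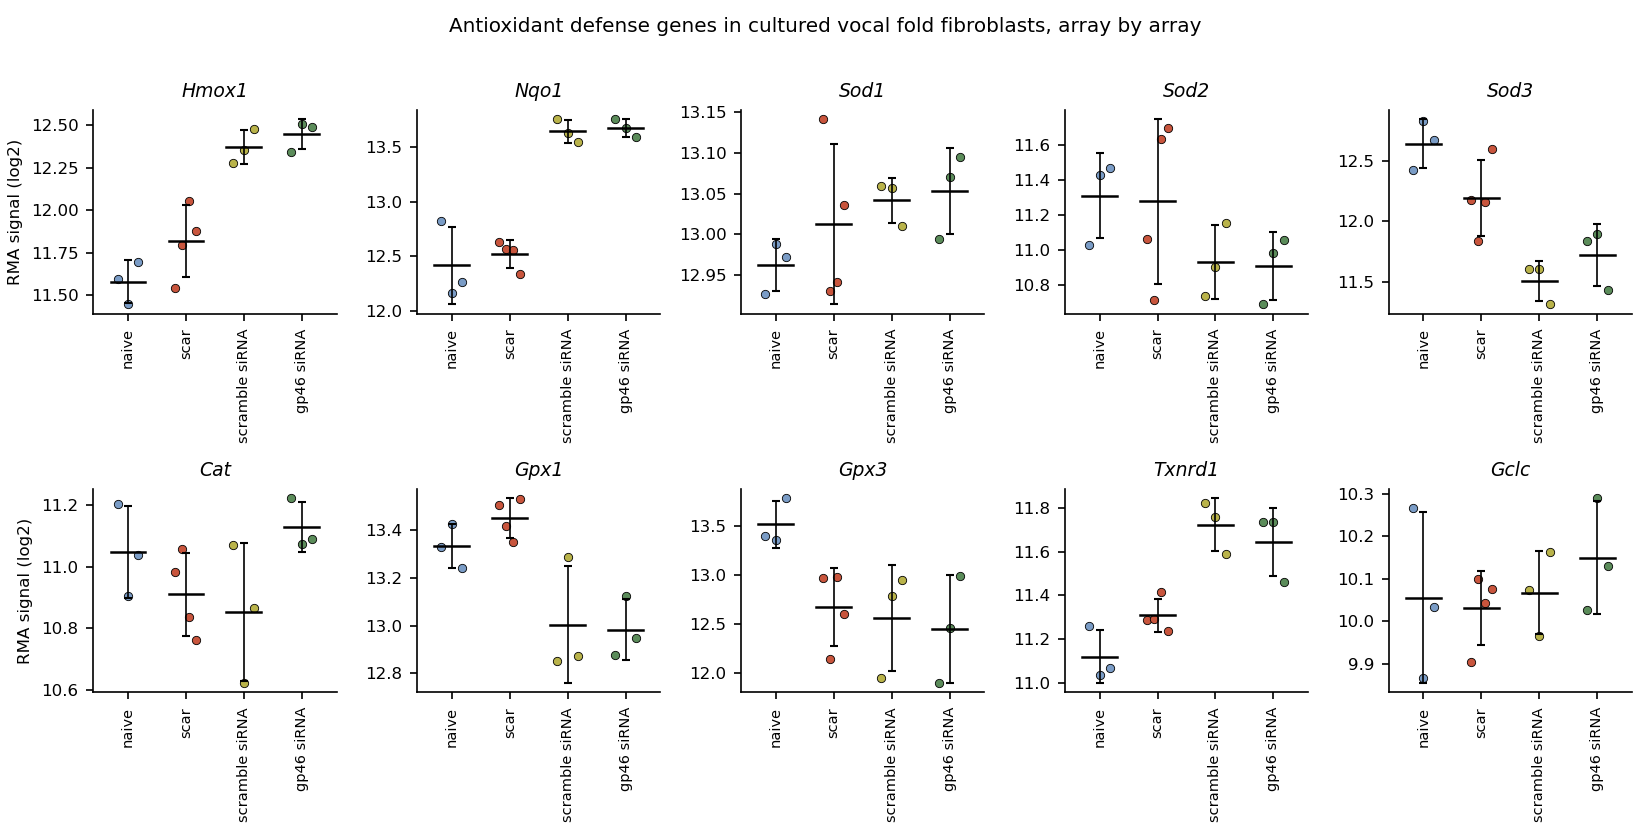
RMA signal (log2, vertical axis, scaled per gene) of the 10 genes in each fibroblast array of 4 groups, with group means (lines) and SD (bars). Nqo1 separates the siRNA-treated cultures, between 13.54 and 13.76, from the scar cultures, between 12.34 and 12.63.

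The siRNA experiment was checked first at its target. Serpinh1 was at 12.99, 12.96 and 12.92 with scramble siRNA and at 12.43, 12.64 and 12.67 with gp46 siRNA, lower in all 3 arrays (-0.38, SE 0.10, 1.30-fold, unadjusted p = 0.00255 by limma, adjusted p = 1). No gene of the array was called between these groups (0%), 299 had an unadjusted p under 0.05 (2.1%), and none of the 10 genes was called. Cat was at 11.07, 10.62 and 10.86 with scramble and 11.22, 11.07 and 11.09 with gp46 siRNA (0.28, SE 0.12, limma unadjusted p = 0.0432, adjusted p = 1). It was the only one of the 10 without overlap, against 6.35% of all genes. The other differences were between -0.11 (Gpx3) and 0.21 (Sod3), and none of the 88 related genes was called, among them Nfe2l2 (0.01) and Txn1 (0.03).

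Scramble-treated and untransfected scar cultures differ by liposomes, siRNA and the added day in fresh medium, which cannot be told apart, and here 5 of 10 genes were called, against 30% of all genes. Higher were 3 genes, against 16.5%, and lower were 2, against 13.6%. Nqo1 was at 12.63, 12.57, 12.56 and 12.34 in scar cultures and 13.76, 13.63 and 13.54 with scramble siRNA, 2.17-fold higher (log2 1.12, SE 0.14, limma adjusted p = 0.000128). The gp46 siRNA cultures, which share the treatment, had 13.76, 13.67 and 13.60.

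Hmox1 rose with scramble siRNA from 11.54, 11.80, 12.05 and 11.88 to 12.28, 12.35 and 12.48 (0.55, SE 0.11, adjusted p = 0.00307). Txnrd1 rose from 11.29, 11.29, 11.42 and 11.24 to 11.82, 11.76 and 11.59 (0.41, SE 0.09, adjusted p = 0.00564). Its second probe set gave 0.51 (SE 0.16, adjusted p = 0.0322 over all probe sets) with some overlap. Gclc, at 0.04 (95% confidence interval -0.18 to 0.26) and 0.01 at its second probe set, did not pass.

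Sod3 was lower with scramble siRNA, at 11.60, 11.60 and 11.31 against 12.18, 11.83, 12.16 and 12.60 (-0.68, SE 0.17, adjusted p = 0.0115), and Gpx1 was lower, at 12.85, 13.29 and 12.87 against 13.51, 13.42, 13.35 and 13.53 (-0.45, SE 0.11, adjusted p = 0.00876). In all 5 genes the arrays did not overlap, as in 34.4% of all genes. In a fit of the scar and scramble arrays alone all 5 calls were kept, and with a replicate block added to that fit the calls of Sod3 (adjusted p = 0.0848), Gpx1 (0.116) and Txnrd1 (0.0994) were lost, and Sod3 also without scramble replicate 3 (0.0545). The mean of the skeletal muscle list was 6.83 to 9.56 in scar and 6.13 to 6.80 in scramble cultures, led by Acta1 (-4.02, adjusted p = 0.00572). Of 11 fibroblast markers 5 fell, against 13.6% of all genes. Their part in these values was not tested.

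The related genes showed 17 higher and 16 lower of 88 in this comparison, against 16.5% higher and 13.6% lower of all genes. Of the Nrf2 control list, Nfe2l2 (0.38, adjusted p = 0.00136) and Sqstm1, an adaptor that binds Keap1 (0.64, 0.0011), were higher, and Mafk (-0.96, 4.97e-05) and Mafg (-0.64, 0.000297) were lower, though Sqstm1 gave -0.030 at its probe set of highest mean (0.715). NADPH genes were higher in 4 and lower in 2 of 7, with the pentose phosphate enzymes Taldo1 (0.85, adjusted p = 6.3e-05) and Pgd (0.54, 8.78e-05) and Idh2 (0.46, 0.000953) higher and Idh1 lower (-0.63, 0.000155). Of the glutathione genes, Glrx, glutaredoxin, was higher (1.18, adjusted p = 0.00267), and Chac1, which degrades glutathione (-1.41, 1.16e-05), Slc3a2 (-0.67, 7.36e-05) and Oplah (-0.44, 0.0283) were lower. In the thioredoxin list, Txn1 (0.33, adjusted p = 0.00436) and Prdx2 (0.28, 0.00463) were higher and Sesn2 (-1.11, 0.000583) and Txnrd3 (-0.30, 0.00611) lower.

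Among the remaining lists, Blvra, biliverdin reductase that acts after heme oxygenase, was higher (0.36, adjusted p = 0.00842), as were Alas1 (0.27, 0.0314), Mt1 (0.56, 0.0284), Gpx8 (0.41, 0.002) and the selenophosphate synthetase Sephs2 (0.54, 0.000908). Cp (-0.86, adjusted p = 0.0127), Gpx7 (-0.21, 0.0339), Selenow (-0.68, 0.000541), Selenon (-0.66, 0.00136) and Selenos (-0.34, 0.00393) were lower. No gene of oxidant production was called. The median difference was -0.01 over the 10 genes and -0.01 over all genes.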

How the data were processed

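RNA of 23 pooled mucosa samples and 13 fibroblast cultures was measured on Affymetrix rat genome arrays. The authors deposited log2 signals after RMA (affy, per the labels), and all 36 arrays share 1 distribution, with sorted values differing by at most 0.03. Background correction was therefore not varied. After removal of 57 control probe sets, 20826 probe sets with 1 symbol stood for 14217 genes; 436 others had several symbols and 9780 none. Where a gene had more than 1 probe set, that of median mean intensity was used, the larger of the middle pair. Some genes are not reported here.

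Groups were compared with limma 3.58.1 (R 4.3.3) in fits of 6 mucosa groups, 4 fibroblast groups, or all 10 groups for naive fibroblasts against mucosa, with Benjamini-Hochberg adjustment over 14217 genes and a threshold of 0.05. Time courses used the moderated F test. The fits were tested on simulated data. The 10 genes, the 9 lists of related genes and the 10 marker lists were chosen with earlier results of these data known. All 10 genes are named, and of each list up to 4 called genes by smallest adjusted p, else genes of highest mean, plus the markers of largest and smallest change. Each mucosa array pools 4 rats and each culture comes from 1 rat; the labels number them as biological replicates.

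Same-numbered gp46 and scramble siRNA cultures had a Pearson's r of deviations of 0.43, 0.18 and 0.47. The replicate block changed no call of the 10 genes between them. The 3-day PI and control pools, which hold different rats, had 0.31, 0.19 and -0.03. Such values cannot show whether cultures share a rat, which the labels do not state. Over the remaining pairs of groups r was between -0.13 and 0.14. Alternatives were array weights, centring, repeated quantile normalization, other probe set rules, a filter on the 30% of genes of lowest mean, fits of fewer groups, pooled controls, a lognormal-normal model (20 iterations, posterior probability over 0.95), a replicate block and leaving out arrays. Plots used Python 3.11.15 with matplotlib 3.10.9.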

Additional observations from a re-analysis of the deposited data

Results flagged for a closer look

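Of 48 groups of 4 or 5 arrays (12 probe sets in 4 groups), 12 had an array far from the others of its group by Dixon's test; chance gives about 1 in 20. In 60-day PI replicate 4, Nqo1 was lowest at 11.13 (1.10 log2 below the next array), Sod1 at 12.73 (0.46 below), Gpx1 at 12.91 (0.52 below) and Gpx3 at 10.62 (0.93 below), while the second probe sets of Txnrd1 (11.39, 1.38 above the next) and Gclc (9.28, 0.55 above) were highest. In 3-day PI replicate 5, Sod1 (12.74), Sod2 (11.49) and Gpx3 (11.62) were lowest, by 0.42, 0.72 and 0.38. These are 2 of the 3 arrays whose deviations correlated across genes. In 14-day PI replicate 4 the second probe sets of Txnrd1 (8.46) and Gclc (7.54) were lowest, by 1.22 and 1.16, while the probe sets used for these genes, at 10.71 and 9.17, were lowest by less. Cat was lowest at 11.77 in 60-day PI replicate 2, by 0.18. Causes of these values were not tested.

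The injury effect differed between time points for Hmox1 (2.41 more at 3 than at 14 days, 2.94 more than at 60 days) and Cat (-0.36 and -0.48, in the same order), by limma contrasts of contrasts.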

How the results depend on the processing

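Over the alternatives, 2231 values of the 10 genes kept their side of the threshold, 33 lost a call and 36 gained one. Some alternatives could change little. The arrays already share 1 distribution, so centring and repeated quantile normalization hardly moved the values. Only Txnrd1 and Gclc had a second probe set, so other probe set rules left the signals of the other members as they were. The tally therefore does not measure how robust the calls are. No called value changed direction, and 92 values that were not called changed sign. At 3 days, Hmox1, Sod3 and Cat were called under every alternative run, and the number called was 5 with array weights, 5 without the 3 arrays that deviated together and 3 to 4 when 1 array was left out. With 1 array left out it was 0 to 1 at 14 days (reported 1), 1 to 2 for the difference between 3 and 14 days (reported 2), 1 to 3 between 3 and 60 days (reported 2), 2 to 5 over PI time (reported 4), 0 to 1 for scar against naive (reported 0), 4 to 5 for scramble against scar (reported 5) and 8 to 9 for naive fibroblasts against mucosa (reported 8). Array weights gave 6 between 3 and 14 days, 5 between 3 and 60 days, 7 over PI time and 1 over control time (Gclc). Without the 3 arrays, 4 were called between 3 and 60 days and 7 over PI time. Pooled controls gave 3 at 60 days. The counts in this paragraph are given without the share of all genes called under the same setting. A higher count may therefore not be particular to these genes. Scramble against scar gave 3 with the lognormal-normal model and 2 with a replicate block in a fit of these arrays alone. The same arrays without the block gave 5. Same-numbered scramble and scar cultures had an r of deviations of -0.08, -0.13 and 0.05, which cannot show whether they share a rat. In the mucosa the consensus correlation of the replicate block was -0.001, so that fit nearly repeated the reported one and could not test pairing. It called 3, 1 and 0 genes at 3, 14 and 60 days. In the other fibroblast comparisons the block, fitted as a fixed term, changed no count. Cul3 at 3 days (0.14) and Sqstm1 in scramble against scar (-0.030) reversed with the probe set of highest mean. The cause of these changes was not tested, and the number of arrays limits the precision.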
